A study of Mus musculus with 21 samples.

Results

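Leca4 and Leca2 are mouse lines that each carry a mutant allele of Pax6, and the change that each allele brought to the embryonic cerebral cortex was compared here gene by gene. The quantity compared was a difference of differences, namely Leca4 mutants minus their littermate controls, minus the same for Leca2. It was computed from 14 of the 21 arrays of the series, 3 from Leca4 mutants, 4 from Leca4 littermate controls, 4 from Leca2 mutants and 3 from Leca2 littermate controls. All 14 embryos were of the 129 S6 strain at embryonic day 14, and the tissue was the rostral cerebral cortex. The mutants are labelled Pax6 Leca4 or Pax6 Leca2 mutant and the controls wild type, with no other allele and no treatment in any group. The labels do not say whether the mutants were homozygous, nor where in the protein each mutation lies. The other 7 arrays, of the Small eye line on another strain, entered the fit only to help estimate the spread between arrays. A positive difference means that the Leca4 change was the more positive one, and a negative difference that it was the more negative one. A gene was called where the adjusted p of limma's test was under 0.05.

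Pax6 is a transcription factor of radial glia, the progenitors that line the ventricle of the dorsal telencephalon. It binds DNA through a homeodomain and a paired domain, and the paired domain has an amino-terminal PAI and a carboxy-terminal RED subdomain that recognise different DNA sequences. In the literature the Leca4 substitution is placed in the PAI and the Leca2 substitution in the RED subdomain, so that the comparison asks which genes depend on which part of the paired domain. In the cortex Pax6 is known for driving neurogenesis through proneural genes, for regulating progenitor division, and for keeping the boundary with the ventral telencephalon.

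The tissue label matched its markers, since the 8 dorsal telencephalon genes tested lay at a mean of 11.37 to 11.69 on the log2 scale on all 14 arrays and 0 of 8 were called for the difference. Pax6 itself was 1 of the 8, and it alone among them was called within a line, up in each. No 2 of the 14 columns were identical, and arrays of a group correlated at 0.993 to 0.997 across genes. The medians of the arrays were 6.25 to 6.26 in the Leca4 line and 6.12 to 6.18 in the Leca2 line. The control groups of the lines, both wild type 129 S6 embryos, were called as different at 6561 of 13850 genes, or 47.4%, with a median shift of 0.16, so that all tests of the difference rest on changes within a line, and levels of both lines set side by side are a description. Xist and Y-linked transcripts marked 2 males and 1 female among the Leca4 mutants, 3 males and 1 female among their controls, 2 males and 2 females among the Leca2 mutants, and 3 females among the Leca2 controls. The labels call the arrays biological replicates without saying that they come from separate litters, so that p-values measure the spread between these embryos.

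The Leca4 and the Leca2 change differed at 329 of the 13850 genes tested, or 2.38%. The difference was positive at 196 genes (1.42%) and negative at 133 (0.96%), and it passed 2-fold at 91 genes. Over all genes tested its median was 0.004, its SD 0.26 and its median standard error (SE) 0.12. The Leca4 change on its own was called at 779 genes (5.62%), 469 up and 310 down, and the Leca2 change at 66 genes (0.477%), 24 up and 42 down. Genes called in both lines numbered 26, which is 3.34% of the Leca4 calls and 39.4% of the Leca2 calls, and 18 of them moved the same way.

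Most of the separation lay in genes that moved in Leca4. Of the 329 genes, 247 (75.1%) were called in Leca4 and not in Leca2, with 157 up and 90 down in Leca4. A further 23 were called in Leca2 only, 15 of them down and 8 up. In both lines 8 were called in opposite directions and 4 in the same direction with unequal size, while 47 were called in neither line on its own. Across all genes the 2 changes had a Pearson r of -0.01 and a Spearman rho of -0.08, which describes genes and not independent replicates. The scatter of the changes shows the calls along the Leca4 axis, with smaller groups along the Leca2 axis and in the quadrant where the lines oppose each other.

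**Figure D1:**
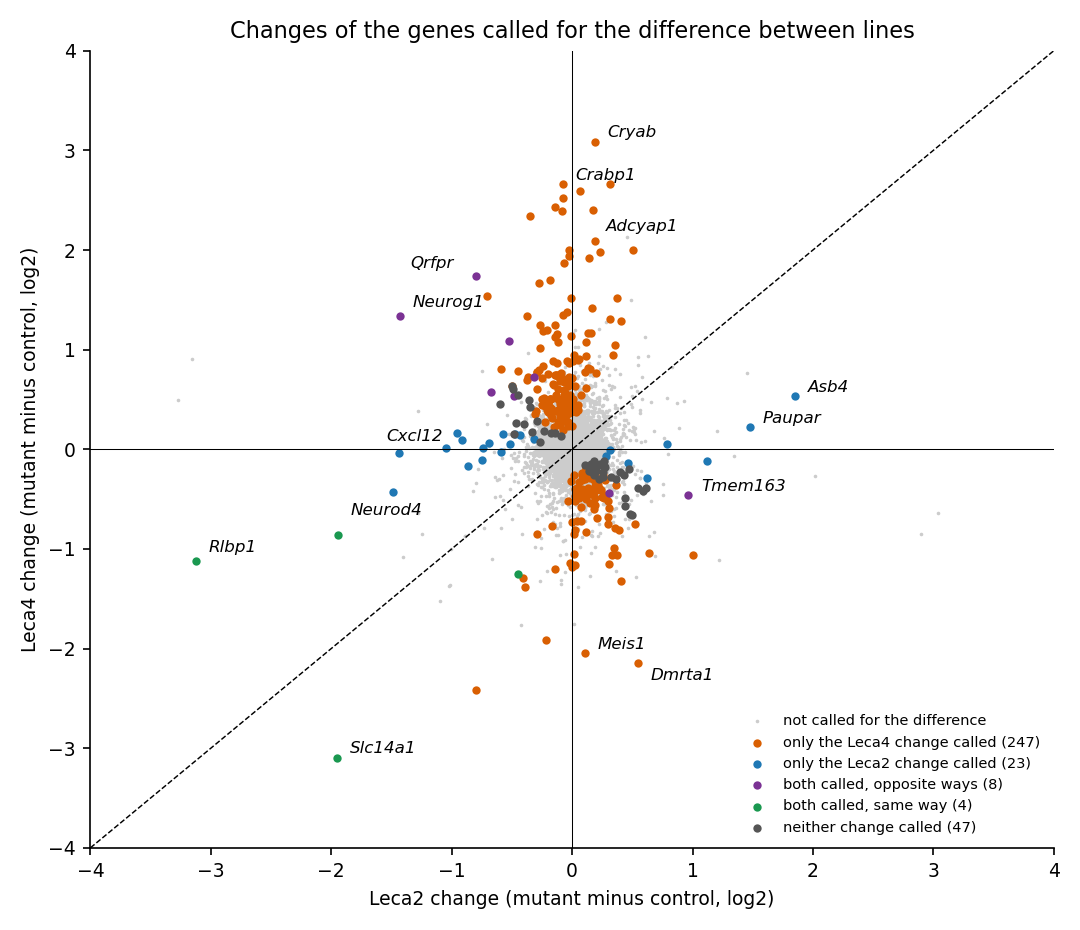
Each point is a gene, with the Leca2 change on the x axis and the Leca4 change on the y axis, both mutant minus littermate control in log2 units. Colours mark the 329 genes called for the difference by the line in which they were called, grey points are the other genes tested, and the dashed line marks equal changes. The 247 genes called only in Leca4 spread along the vertical axis, while Neurog1 and Rlbp1 stand off to the left.

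Neurog1, a proneural basic helix-loop-helix (bHLH) factor that commits progenitors to a neuronal fate, had the largest difference of the genes called in both lines. Its log2 values were 10.59, 10.36 and 10.66 in the Leca4 mutants against 9.24, 9.16, 8.96 and 9.42 in their controls. In the Leca2 mutants they were 8.003, 7.56, 7.19 and 7.76 against 9.31, 8.95 and 8.93 in their controls. All Leca4 mutants lay above and all Leca2 mutants below every control of either line. Neurog1 rose by 1.34 in Leca4 and fell by 1.43 in Leca2, a difference of 2.77 (SE 0.22, adjusted p = 2.99e-07) or 6.84-fold. A second probe set for the gene near the background had a difference of 0.20 that was not called, and the mean of both probe sets gave 1.49.

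Tmem163, which encodes a zinc transporter of vesicle membranes, moved the other way round. The Leca4 mutants had values of 8.14, 7.95 and 7.85 and their controls 8.23, 8.63, 8.34 and 8.58. The Leca2 mutants had values of 9.065, 8.89, 8.89 and 8.89 and their controls 7.94, 7.95 and 8.02. The gene fell by 0.46 in Leca4 and rose by 0.96 in Leca2, with no overlap of mutants and controls in either line and a difference of -1.43 (SE 0.13, adjusted p = 2.37e-06). Mfge8, a secreted bridge to phagocytic receptors, also fell in Leca4, by 0.43, and rose in Leca2, by 0.30.

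The other genes called in opposite directions rose in Leca4 and fell in Leca2. Pde1c, a calcium-dependent phosphodiesterase, had 9.06, 9.36 and 8.89 in the Leca4 mutants against 7.95 to 8.12 in the controls, and 7.37, 7.22, 7.33 and 7.08 in the Leca2 mutants against 7.65 to 7.93. Its changes were 1.09 and -0.52, and its difference 1.61 (SE 0.16, adjusted p = 3.64e-06). Dnajc1, a co-chaperone of the endoplasmic reticulum, changed by 0.57 and -0.68, and 3 of its probe sets had differences of 0.95 to 1.25, each called. Ak3, a mitochondrial adenylate kinase, changed by 0.72 and -0.32, and Myo6, a myosin that moves toward the minus end of actin, by 0.54 and -0.48. Further Myo6 probe sets had differences of 0.39 and 0.50, without a call for the difference or in either line. Qrfpr, a neuropeptide receptor, rose by 1.74 in Leca4, from 5.80 to 6.03 in the controls to 7.31 to 7.91 in the mutants. All 7 Leca2 arrays of Qrfpr, at 3.27 to 4.49, lay under the background level of 5.44 to 5.60 (the 40th percentile of each array), so that its Leca2 change of -0.79 has no level behind it.

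**Figure D2:**
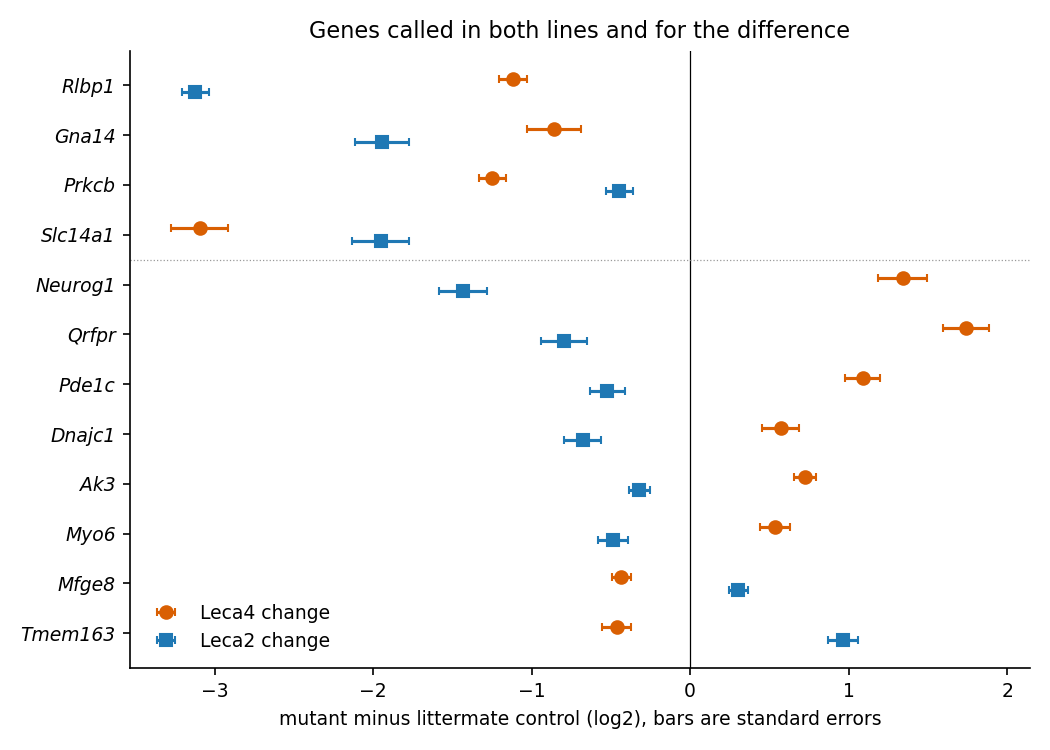
Points give the Leca4 change (circles) and the Leca2 change (squares) of the 12 genes called in both lines and for the difference, in log2 units, and bars are standard errors of the fit. Below the dotted line are the 8 genes called in opposite directions and above it the 4 called in the same direction; Neurog1 changed by 1.34 and -1.43, and Rlbp1 by -1.12 and -3.12.

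Rlbp1, a retinaldehyde-binding protein expressed by radial glia and known to depend on Pax6, fell in both lines but much further in Leca2. The Leca2 mutants had values of 7.08, 6.77, 6.88 and 6.97 against 10.04, 10.17 and 9.93 in their controls, a change of -3.12 or 8.70-fold. The Leca4 mutants had values of 9.31, 9.45 and 9.38 against 10.39, 10.52, 10.68 and 10.38, a change of -1.12. Each mutant group lay below its controls, and the difference was 2.00 (SE 0.12, adjusted p = 1.35e-08).

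Gna14, the alpha subunit of a G protein, likewise fell further in Leca2, by 1.94 against 0.86, with a difference of 1.09 (SE 0.24, adjusted p = 0.0179) that was no longer called without the first Leca2 control (lowest to highest mutant values 4.84 to 5.75 in Leca2 and 6.23 to 6.27 in Leca4). Prkcb, a protein kinase C, fell further in Leca4, by 1.25 against 0.45, with values of 8.85, 8.96 and 8.54 in the Leca4 mutants and 9.48, 9.46, 9.39 and 9.24 in the Leca2 mutants. Its difference was -0.80 (SE 0.12, adjusted p = 7.56e-04), and a second probe set gave -0.72. Slc14a1, a urea transporter, lay under the background level in both mutant groups, at 3.63 to 3.90 and 3.25 to 3.78. It was at least 2.402-fold lower in Leca4, and in Leca2 the controls, at 5.17 to 6.01, were near the background themselves. Its difference of -1.14 therefore rests on the levels of the controls, was lost without Leca2 control 2 or Leca4 mutant 1, and turned to 0.11 when both mutant groups were set against all 129 S6 controls together.

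The promoters of 4 of these genes are shown because they stand for the patterns found, opposite changes (Neurog1 and Tmem163), a loss shared by both lines (Rlbp1) and a rise in Leca4 alone (Cd44). Each sequence is the 250 bases before the first listed start of the gene, from RefSeq on GRCm38.p6, written 5′ to 3′ on the strand of the gene. They lie at chr13:56252181-56252430 (Neurog1), chr1:127678022-127678271 (Tmem163), chr7:79387028-79387277 (Rlbp1) and chr2:102901666-102901915 (Cd44), all on the minus strand. Capitals mark matches to TAATTA, a homeodomain core, and matches to TTCACGC, a core of the paired-domain consensus, would be marked too.
Neurog1: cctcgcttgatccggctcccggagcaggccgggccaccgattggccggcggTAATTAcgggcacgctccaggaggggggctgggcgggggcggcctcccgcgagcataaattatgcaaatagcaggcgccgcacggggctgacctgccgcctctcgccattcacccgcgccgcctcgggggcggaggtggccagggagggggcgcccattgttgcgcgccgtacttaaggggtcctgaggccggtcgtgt
Tmem163: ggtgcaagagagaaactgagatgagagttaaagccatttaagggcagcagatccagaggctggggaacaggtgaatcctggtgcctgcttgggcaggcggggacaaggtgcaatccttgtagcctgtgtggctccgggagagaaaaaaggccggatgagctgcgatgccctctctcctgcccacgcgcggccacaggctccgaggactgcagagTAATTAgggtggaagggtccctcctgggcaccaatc
Rlbp1: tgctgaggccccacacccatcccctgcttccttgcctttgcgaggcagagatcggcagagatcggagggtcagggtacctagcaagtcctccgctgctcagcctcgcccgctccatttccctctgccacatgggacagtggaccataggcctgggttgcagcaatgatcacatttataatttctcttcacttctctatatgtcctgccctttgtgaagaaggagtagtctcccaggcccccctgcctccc
Cd44: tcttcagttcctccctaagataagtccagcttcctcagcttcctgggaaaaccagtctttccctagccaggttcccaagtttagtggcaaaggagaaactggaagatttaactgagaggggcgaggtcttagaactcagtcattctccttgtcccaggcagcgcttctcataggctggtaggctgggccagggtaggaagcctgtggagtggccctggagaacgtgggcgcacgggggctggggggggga
Only the first 2 promoters held a match, both to TAATTA. Both motifs were searched on both strands, and TAATTA reads the same on each. Of 11114 promoters of tested genes, 2.34% held TAATTA and 1.49% held TTCACGC. Among genes with a positive difference 155 of 196 had a promoter in the table, and 5 of them (3.23%) held TAATTA and 2 (1.29%) TTCACGC. Among genes with a negative difference 108 of 133 had one, and 5 (4.63%) held TAATTA and 1 (0.926%) TTCACGC. These are matches of letters in a short window, with no binding measured.

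The genes called in Leca2 alone were led by fallers. Cxcl12, a chemokine that guides migrating interneurons and Cajal-Retzius cells, had 7.91, 8.05, 7.91 and 7.34 in the Leca2 mutants against 9.06, 9.42 and 9.26 in the controls. In the Leca4 line the mutants had 9.47, 9.70 and 9.57, within the range of their controls of 9.38 to 9.75. Cxcl12 therefore fell by 1.44 in Leca2 with a Leca4 change of -0.04, and the difference was 1.4 (SE 0.25, adjusted p = 0.00359). Neurod4, a bHLH factor downstream of proneural genes, fell by 1.49 in Leca2, to values of 6.36 to 6.87 from 8.06 to 8.20. Its Leca4 change of -0.43 did not pass (adjusted p = 0.0552), and the difference was 1.07 (SE 0.18, adjusted p = 0.00207), with 1.61 at a second probe set.

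Id4, an inhibitor of bHLH factors in progenitors, fell by 0.57 in Leca2, from 13.20 to 13.31 in the controls to 12.46 to 12.86 in the mutants, and its difference of 0.72 was called at each of 3 probe sets. Nrarp, a target and feedback inhibitor of Notch, fell by 0.48 in Leca2 with a difference of 0.62. Both of these differences were lost with mutants and controls of a line paired by replicate number. Emid1, an extracellular protein, fell by 1.05 with a difference of 1.06, Napepld, an enzyme of endocannabinoid synthesis, by 0.92 with a difference of 1.01, and Igsf11, a synaptic adhesion molecule, by 0.87 with a difference of 0.70. In each of these 3 genes the Leca2 mutants lay below every Leca2 control and the Leca4 change was between -0.16 and 0.10.

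Among the 8 genes that rose in Leca2 alone, Asb4, part of a ubiquitin ligase, had 7.98, 8.16, 7.75 and 8.06 in the mutants against 6.55, 5.76 and 6.10 in the controls. The Leca4 mutants had 6.86, 7.37 and 7.13, which overlap their controls at 5.90 to 7.09. The rise in Leca2 was 1.85 and the difference -1.32 (SE 0.32, adjusted p = 0.0332), and this call was lost without Leca2 mutant 2 or 4, Leca2 control 2 or 3, Leca4 mutant 1 or 3, or Leca4 control 2, 3 or 4. Ddit4l, an inhibitor of mTOR signalling, rose by 0.79 in Leca2 with a difference of -0.74 (SE 0.15, adjusted p = 0.00842).

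The list of proneural and neurogenic bHLH factors also holds Id genes, which are inhibitors of bHLH factors. Of its 15 genes tested, 3 were called with a positive and 1 with a negative difference, with a median difference of 0.14 against 0.004 over all genes. The positive ones were Neurog1, Neurod4 and Id4, described above. Id1, an inhibitor of bHLH factors, had a negative difference of -0.67 with neither line called, and its call was lost under 16 alternatives, among them leaving out Leca2 mutant 2 or 3, Leca2 control 2 or 3, Leca4 mutant 1 or 3, or any Leca4 control. Neurog2, the main proneural factor of the dorsal telencephalon, had 11.98 to 12.32 in Leca4 mutants against 12.09 to 12.50, and 11.74 to 12.12 in Leca2 mutants against 12.39 to 12.50. Its difference of 0.45 (SE 0.17, adjusted p = 0.199) was not called, although its 4 Leca2 mutants lay below the 3 controls. Neurod1 had a difference of 0.05 (SE 0.17) and Hes6 of 0.14 (SE 0.09), neither called.

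Markers of the cells that proneural genes give rise to were called at shares from 0% to 4.76% by list, around the 2.38% of all genes tested. Of 21 intermediate progenitor genes 1 was called, Neurod4, and the median difference was -0.04. Eomes, the defining factor of intermediate progenitors, had a difference of -0.17 (SE 0.14), and Insm1 of 0.04 (SE 0.11). None of the 20 pan-neuronal genes was called in the difference or in either line by limma, and their median difference was -0.01. Over all genes tested 5.62% were called in Leca4, up or down, and 0.477% in Leca2. Of 28 projection neuron genes 3 rose and 4 fell in Leca4, and for the difference only Zfpm2, a cofactor of deep layer neurons, was called, with 0.61, while Tbr1 had 0.04 (SE 0.23). Of 12 Cajal-Retzius genes none was called, and Reln had 0.32 (SE 0.31).

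Of 25 Notch genes tested, 2 were called for the difference (8%, against 2.38% of all genes tested). Jag1 was called through a rise in Leca4 and Nrarp through the fall in Leca2 given above. The median difference was 0.19, and 21 of the 25 differences were positive, against 51.1% of all genes tested. Jag1, a Notch ligand, had 9.12, 9.10 and 9.20 in the Leca4 mutants against 8.22, 8.27, 8.21 and 8.29, and 8.09, 7.87, 8.06 and 8.06 in the Leca2 mutants against 8.07, 8.04 and 8.09. Jag1 rose by 0.89 in Leca4 and was not called in Leca2, with a difference of 0.93 (SE 0.09, adjusted p = 5.8e-06), and a second, dimmer probe set gave 0.45 without a call. The Notch targets Hes1 and Hes5 had differences of 0.24 (SE 0.21) and 0.16 (SE 0.23), not called.

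Cell cycle genes were called at few places, which at list sizes like these is near the 2.38% of all genes tested. None of 30 genes of the G1 to S transition and replication and none of 29 genes of G2 and mitosis was called for the difference or in either line, and their medians were -0.05 and -0.08. The shares called over all genes tested were 5.62% in Leca4 and 0.477% in Leca2. Mcm6, a helicase subunit, had a difference of 0.08 (SE 0.10), Top2a of -0.09 (SE 0.12) and Mki67 of -0.12 (SE 0.20). Among 23 G1 regulators, Cdkn1c, a cyclin-dependent kinase inhibitor that promotes cell cycle exit, was called, with a rise of 0.78 in Leca4 to 11.93 to 12.08 and a difference of 0.68 (SE 0.15, adjusted p = 0.0216). That call was lost without the first Leca2 control or the first Leca4 mutant. Ccnd1 had a difference of -0.27 (SE 0.18), Ccnd2 of 0.01 (SE 0.09) and Cdk4 of 0.05 (SE 0.07), none of them called.

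**Figure D3:**
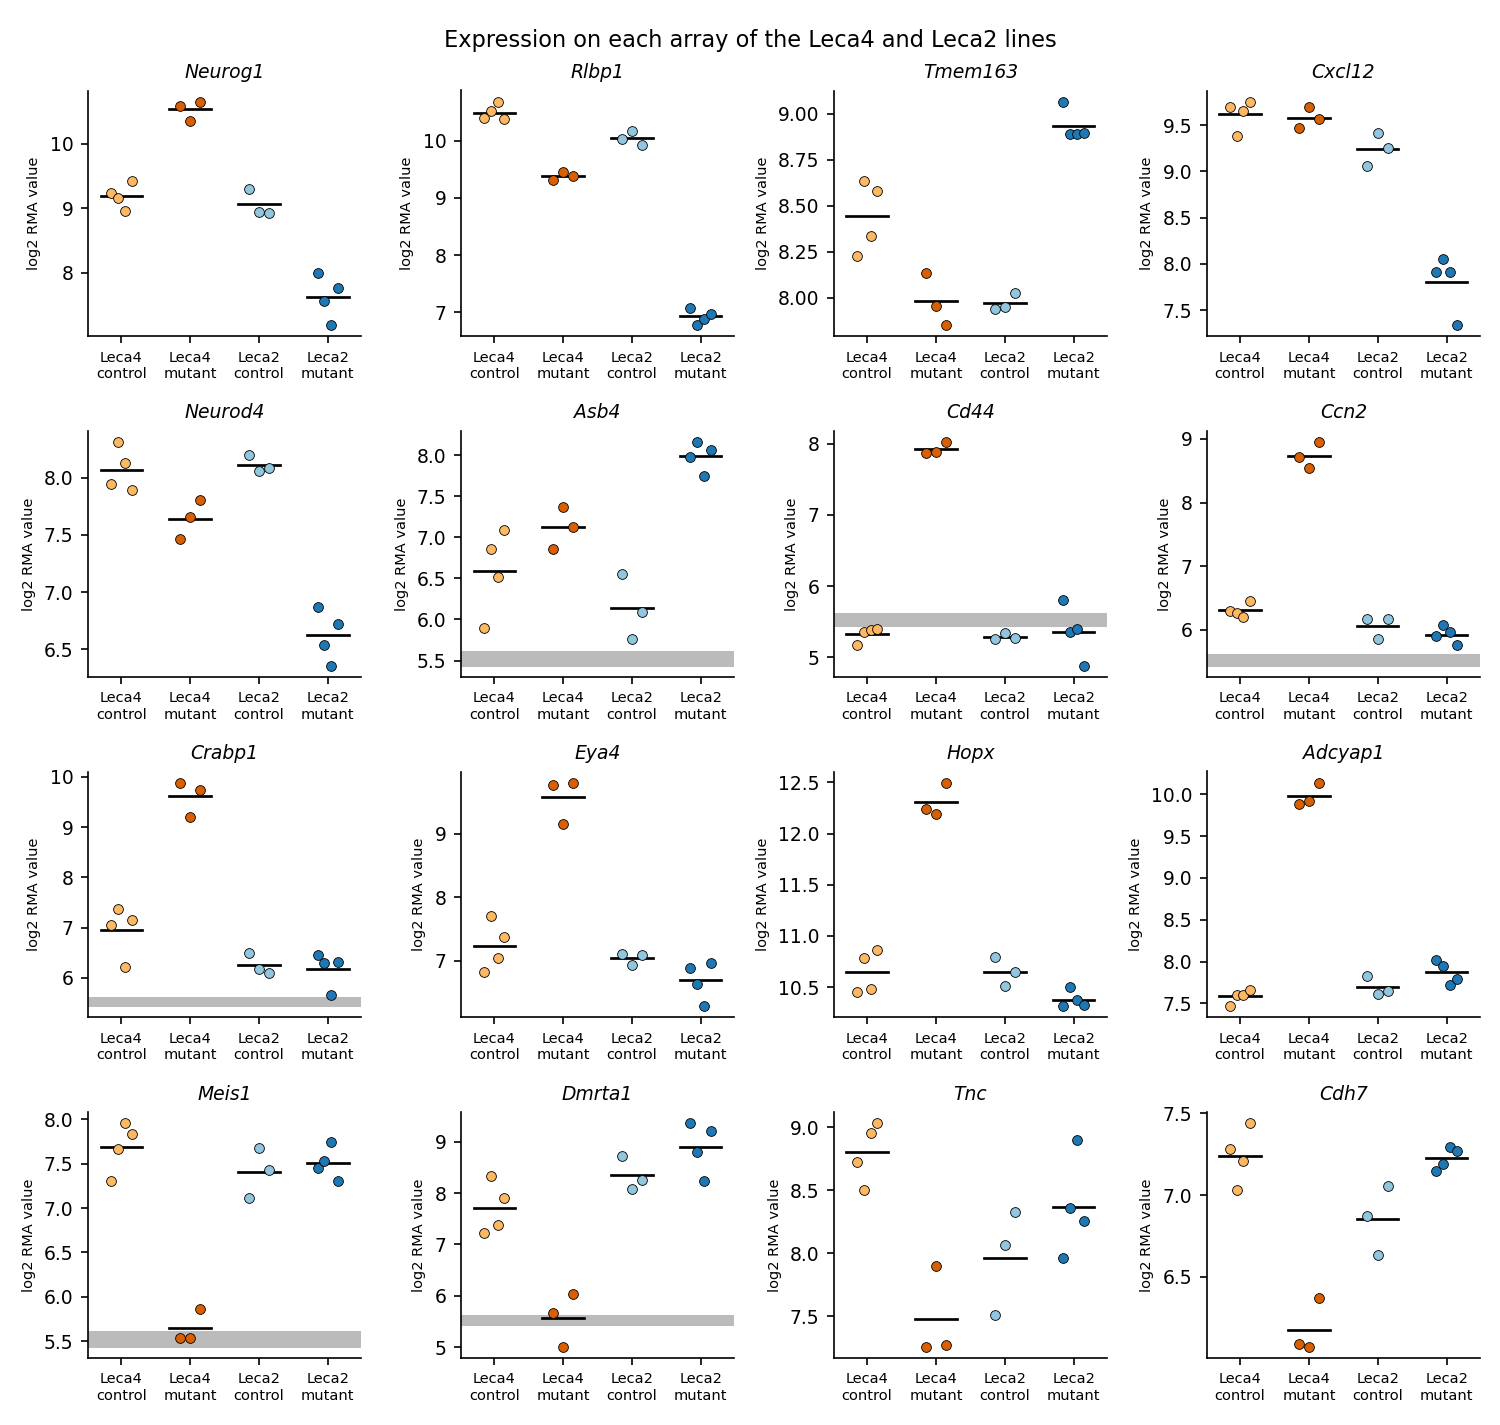
Each panel shows 1 gene on the 14 arrays as log2 RMA values, with points for arrays and bars for group means, and the axes do not start at 0. The grey band in panels that reach it is the background level, 5.44 to 5.60. Cd44, Ccn2, Crabp1, Eya4, Hopx and Adcyap1 are raised in the Leca4 mutants alone, while Rlbp1, Cxcl12 and Neurod4 are lowest in the Leca2 mutants.

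The extracellular matrix and matricellular genes, the longest list tested, had 7 positive and 3 negative differences among 46 genes, with a median difference of 0.09. That is 21.7% of the list, against 2.38% of all genes tested, while the shorter bHLH list, with its Id inhibitors, had 26.7%. The lists were written with earlier results of these data known, so such shares describe the lists and are no test of them. In the Leca4 change 10 of the 46 rose and 4 fell, where 5.62% of all genes tested were called up or down. In the Leca2 change 0 of 46 were called by limma, near the 0.477% of all genes tested. Cd44, the hyaluronan receptor, had 7.87, 7.88 and 8.02 in the Leca4 mutants, while the 11 other arrays lay at 4.88 to 5.80, about the background. It was at least 5.04-fold higher in the Leca4 mutants than in their controls, and the difference was 2.53 (SE 0.21, adjusted p = 6.08e-07). Ccn2, a matricellular growth factor modulator, had 8.72, 8.54 and 8.95 in the Leca4 mutants and 5.77 to 6.46 on the other arrays, with a difference of 2.57 (SE 0.17, adjusted p = 3.27e-08).

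Further matrix genes rose in Leca4, Sparc from a high level and Fbln7 from about the background. Sparc, a collagen chaperone, had 11.08, 10.91 and 11.10 in the Leca4 mutants against 10.08 to 10.27 in the controls, and the Leca2 mutants at 10.02 to 10.12 overlapped theirs, for a difference of 0.89 (SE 0.11, adjusted p = 1.19e-04). A second probe set gave 1.00 and a further one -0.07 without a call. Nid2, a basement membrane linker, had a difference of 1.29 (SE 0.19), and Fbln7, a fibulin, of 2.35 (SE 0.46). Fn1, fibronectin, had a difference of 0.89 (SE 0.17), but a second, dim probe set gave -0.27, and the mean of both gave 0.31 without a call (adjusted p = 0.495). Fbln1 was called with 0.50, a call lost without Leca2 control 1 or 2, Leca4 mutant 1 or 3, or Leca4 control 1 or 3. Of genes outside the list, Npnt, an integrin ligand (1.90), Col6a3, a collagen VI chain (2.47), Lgals1, a galectin (1.75), Tnfaip6, a hyaluronan-binding protein (1.496), and Vcam1, an adhesion molecule of neural stem cells (1.42), also had positive differences with a call in Leca4 and none in Leca2. Another probe set of Npnt gave 1.68, but 2 more gave 0.05 and 0.10 without a call, and the mean of all was 0.93. For Vcam1 the other probe sets gave 0.93 and 0.10 without a call. Tnfaip6 lay under the background level on all arrays but those of the Leca4 mutants.

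The negative differences of the list were Tnc, Col1a2 and Col9a1. Tnc, tenascin C, made by progenitors near the boundary between dorsal and ventral telencephalon, had 7.26, 7.90 and 7.28 in the Leca4 mutants against 8.73, 8.50, 8.96 and 9.03. In Leca2 the mutants at 7.96 to 8.90 overlapped the controls at 7.51 to 8.33. Tnc fell by 1.33 in Leca4 and its difference was -1.73 (SE 0.33, adjusted p = 0.0068). Col1a2, a fibrillar collagen of connective tissue, had a difference of -1.01 with neither line called, and Col9a1, a cartilage collagen, one of -0.90 that was lost without Leca2 control 1 or 2, Leca4 mutant 1 or 3, or Leca4 control 4.

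Markers of other cell types were read beside the matrix genes. Of 9 meninges and mesenchyme genes tested, 1 was called for the difference, Col1a2, lower (11.1%, against 2.38% of all genes tested), and the median difference was -0.21. In Leca4 2 of the 9 rose and 0 fell, where 5.62% of all genes tested were called up or down. In Leca2 0 of the 9 were called by limma, near the 0.477% of all genes tested. Of the 16 listed 7 lay under the filter, among them the defining Col1a1, Lum and Twist1. The summed linear level of the 9 was 1340 to 1681 in Leca4 mutants against 972 to 1173 in controls, and 1165 to 1326 in Leca2 mutants against 966 to 1303. Of 19 endothelial and pericyte genes none was called for the difference and their median was 0.003, with summed levels of 5769 to 6683 against 6185 to 6564 in Leca4 and 4754 to 5695 against 5157 to 5276 in Leca2.

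Of 13 microglia genes none was called for the difference, while the median difference was 0.42 and 5 of 13 rose in Leca4, with 0 in Leca2, by limma. Over all genes tested 5.62% were called in Leca4, up or down, and 0.477% in Leca2, so that 0 of 13 in Leca2 is near the general share. Their summed level was 2928 to 3255 in the Leca4 mutants against 2307 to 2623 in the controls, and 1594 to 2008 in the Leca2 mutants against 1813 to 2041. Csf1r, the receptor that microglia need to live, rose by 0.42 in Leca4 and had a difference of 0.50 (SE 0.14, adjusted p = 0.0754). In bulk tissue more cells of a type and more RNA per cell cannot be told apart, and the part of these cells in the matrix differences was not tested.

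Transcription factors of patterning had called differences of either sign. Dbx1, a homeobox gene of the antihem and the septum, had 9.21, 7.12 and 8.20 in the Leca4 mutants while the other 11 arrays lay at 5.38 to 5.81. The Leca4 mutants were all higher but spread by over 2 log2 units, and the difference was 2.59 (SE 0.41, adjusted p = 0.00141). Most other antihem genes did not go with Dbx1. Of 15 antihem and lateral pallium genes tested 2 were called (13.3%, against 2.38% of all genes tested), both positive. Only 5 of the 15 differences were positive, with a median of -0.13. In Leca4 1 of the 15 rose and 2 fell, where 5.62% of all genes tested were called. Eya4, a phosphatase and transcriptional cofactor of the Pax, Eya and Dach network, had 9.76, 9.15 and 9.80 in the Leca4 mutants and 6.29 to 7.70 on the other arrays, a difference of 2.69 (SE 0.27, adjusted p = 5.8e-06). Its relative Eya2 had a difference of 1.04 near the background that was lost without Leca2 control 1. Of the 9 genes of their list 2 were called (22.2%, against 2.38% of all genes tested).

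Uncx, a homeobox gene, rose by 1.54 in Leca4 and had a difference of 2.24 (SE 0.43, adjusted p = 0.00695), with Leca2 values of 4.22 to 5.22 in mutants and 5.11 to 6.26 in controls around the background. Onecut2, a factor of early neurons, had 6.86, 6.77 and 7.02 in the Leca4 mutants against 4.87 to 5.77 on the other arrays, a difference of 1.53 (SE 0.25). Foxp1, a forkhead factor of striatal and cortical neurons, rose by 0.70 in Leca4 with a difference of 1.07 (SE 0.14, adjusted p = 2.16e-04), and 6 of its 7 probe sets were called with 0.70 to 1.16.

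Dmrta1 and Meis1 moved the other way. Dmrta1, a DM domain factor of cortical progenitors known to depend on Pax6, had 5.66, 5.01 and 6.04 in the Leca4 mutants against 7.22, 8.33, 7.38 and 7.91 in their controls. In Leca2 the mutants had 9.36, 8.79, 8.24 and 9.21 against 8.72, 8.08 and 8.26, so that the groups overlapped. Dmrta1 fell by 2.14 in Leca4 and its difference was -2.70 (SE 0.39, adjusted p = 5.56e-04). Meis1, a homeobox cofactor, had 5.53, 5.54 and 5.86 in the Leca4 mutants against 7.30 to 7.96, and 7.31 to 7.74 in the Leca2 mutants against 7.11 to 7.67. It fell by 2.05 in Leca4, down to about the background, and its difference was -2.15 (SE 0.28, adjusted p = 1.48e-04).

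Other members of the Meis and Pbx list did not reach a call. Pbx3 fell by 1.39 in Leca4, but the Leca2 mutants spread from 8.23 to 9.85 and the difference of -1.44 (SE 0.48, adjusted p = 0.141) was not called, and Meis2 had -0.35 (SE 0.11, adjusted p = 0.0997). Pou3f4, a POU factor of the ventral telencephalon, fell by 0.81 in Leca4 with a difference of -1.21 (SE 0.25, adjusted p = 0.0116).

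Ventral telencephalon genes as a list had a median difference of -0.36 over 22 tested, with 4 of 22 above 0. Foxp1 alone was called (4.55% of the list, against 2.38% of all genes tested), and in the positive direction. Gsx2, a homeobox gene of ventral progenitors, had 5.29, 5.99 and 5.74 in the Leca4 mutants against 5.92 to 7.12, and 5.53, 6.34, 6.68 and 5.36 in the Leca2 mutants against 5.23 to 5.37. Its difference of -1.51 (SE 0.40, adjusted p = 0.0554) missed the threshold. Dlx2 had -1.04 (SE 0.50) and Gad1 -0.64 (SE 0.47), and their Leca2 mutants spread widely, from 7.61 to 9.54 for Dlx2.

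Radial glia genes gave 2 positive and 1 negative difference among 28 (10.7%, against 2.38% of all genes tested), with a median of 0.16. Besides Rlbp1 and Tnc the list held Hopx, a homeodomain-only protein that marks radial glia, which had 12.24, 12.19 and 12.50 in the Leca4 mutants against 10.45 to 10.87 in their controls. The Leca2 mutants, at 10.31 to 10.50, lay below or at the 10.51 to 10.80 of their controls, with a change of -0.27 that was not called. The difference of 1.94 (SE 0.19, adjusted p = 4.76e-06) was repeated at a second probe set with 2.09. Emx2 and Hmga2 had 0.38 (SE 0.24) and 0.29 (SE 0.27), not called, and the area gene Nr2f1 changed by -0.79 and -0.73, a difference of -0.05 (SE 0.30).

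Retinoid binding and metabolism gave 3 positive differences among 16 genes (18.8%, against 2.38% of all genes tested), with a median of 0.07. Crabp1, a cytoplasmic retinoic acid binding protein, had 9.88, 9.20 and 9.74 in the Leca4 mutants against 6.21 to 7.37, while Leca2 mutants at 5.66 to 6.45 overlapped their controls at 6.09 to 6.497. It rose by 2.66 in Leca4 and its difference was 2.74 (SE 0.37, adjusted p = 2.09e-04). Dhrs3, a retinaldehyde reductase, rose by 1.08 in Leca4 with a difference of 0.97 (SE 0.11, adjusted p = 1.52e-05), and Rlbp1 was the third. Crabp2 rose by 1.17 in Leca4 and by 0.00 in Leca2, but its difference of 1.16 (SE 0.35, adjusted p = 0.0873) was not called.

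The heat shock list was called at 1 of 17 genes, Cryab (5.88%, against 2.38% of all genes tested). In Leca4 3 of the 17 rose and 0 fell, where 5.62% of all genes tested were called up or down. Hspb8 also rose in Leca4, by 0.72, but its difference of 0.68 (adjusted p = 0.171) was not called. Other probe sets of Hspb8 gave differences of 0.83 and 2.06, also without a call. Cryab, a small heat shock protein, had a fitted difference of 2.90 (SE 0.27, adjusted p = 2.9e-06), whose size has no measured level on its low side. Its values were 7.86, 7.38 and 8.52 in the Leca4 mutants, and the other 11 arrays lay under the background level at 3.98 to 5.06, so that it was at least 5.03-fold higher in Leca4.

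Several genes of neuronal signalling differed through a rise in Leca4. Adcyap1, the neuropeptide PACAP, had 9.89, 9.92 and 10.14 in the Leca4 mutants and 7.47 to 8.02 on the other arrays, with a difference of 2.22 (SE 0.12, adjusted p = 4.02e-09). Chrna3, a nicotinic receptor subunit, had 8.86, 8.54 and 9.16 against 6.66 to 7.25 elsewhere, a difference of 1.96 (SE 0.21). Of 28 voltage-gated channel genes 2 were called (7.14%), Kcnq5 (0.99) and Cacna2d1 (0.69). Of 22 glutamate receptor and transporter genes 1 was called (4.55%), Grid1 (0.93). The share over all genes tested was 2.38%, and each of these calls came through a rise in Leca4. Other probe sets gave 0.003, 0.68 and 0.78 for Cacna2d1 and 0.34 for Grid1, without a call.

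Of 22 cadherins 2 rose and 4 fell in Leca4, and 2 were called for the difference, both negative. For this and the next lists, the shares over all genes tested were 5.62% called in Leca4 and 2.38% for the difference. Cdh7 had 6.09, 6.08 and 6.37 in the Leca4 mutants against 7.03 to 7.44, and 7.15 to 7.29 in the Leca2 mutants against 6.64 to 7.06, a difference of -1.43 (SE 0.15, adjusted p = 8.31e-06). Cdh8, a cadherin of cortical areas, fell by 1.20 with a difference of -1.06 (SE 0.18), and Cdh4 fell by 0.72 but its difference of -0.82 (SE 0.24, adjusted p = 0.0772) was not called. Of 19 netrin, Unc5, Slit and Robo genes 2 rose and 1 fell in Leca4, and Ntn4 alone was called for the difference. Ntn4, a secreted netrin, fell by 1.38 in Leca4 to values of 7.39 to 7.67 and had a difference of -0.99 (SE 0.16, adjusted p = 0.00185). Of 27 semaphorin, neuropilin and plexin genes none was called, with a median of -0.15, and of 20 Eph and ephrin genes Efna3 (0.39) and Epha3 (-0.34) were. The Epha3 call, with an adjusted p of 0.0498, was lost in 18 of 29 alternatives, among them leaving out any array other than Leca2 mutant 4 and Leca4 mutant 2, and the Efna3 call was lost with the mean of probe sets.

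The largest negative differences also held genes outside the lists. Ptx3, a pentraxin of the extracellular space, had 8.21, 8.15 and 7.75 in the Leca4 mutants against 9.70 to 10.11, and 8.69 to 9.12 in the Leca2 mutants against 8.77 to 9.38, a difference of -1.70 (SE 0.26, adjusted p = 7.97e-04). Cand2, a regulator of cullin ligases, fell by 1.04 with a difference of -1.68 (SE 0.28). Cdo1, an enzyme of cysteine breakdown, fell by 1.05 with -1.07 (SE 0.12), and Scd1, a fatty acid desaturase, by 1.14 with -1.12 (SE 0.19), each with a Leca2 change between -0.02 and 0.02.

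**Figure D4:**
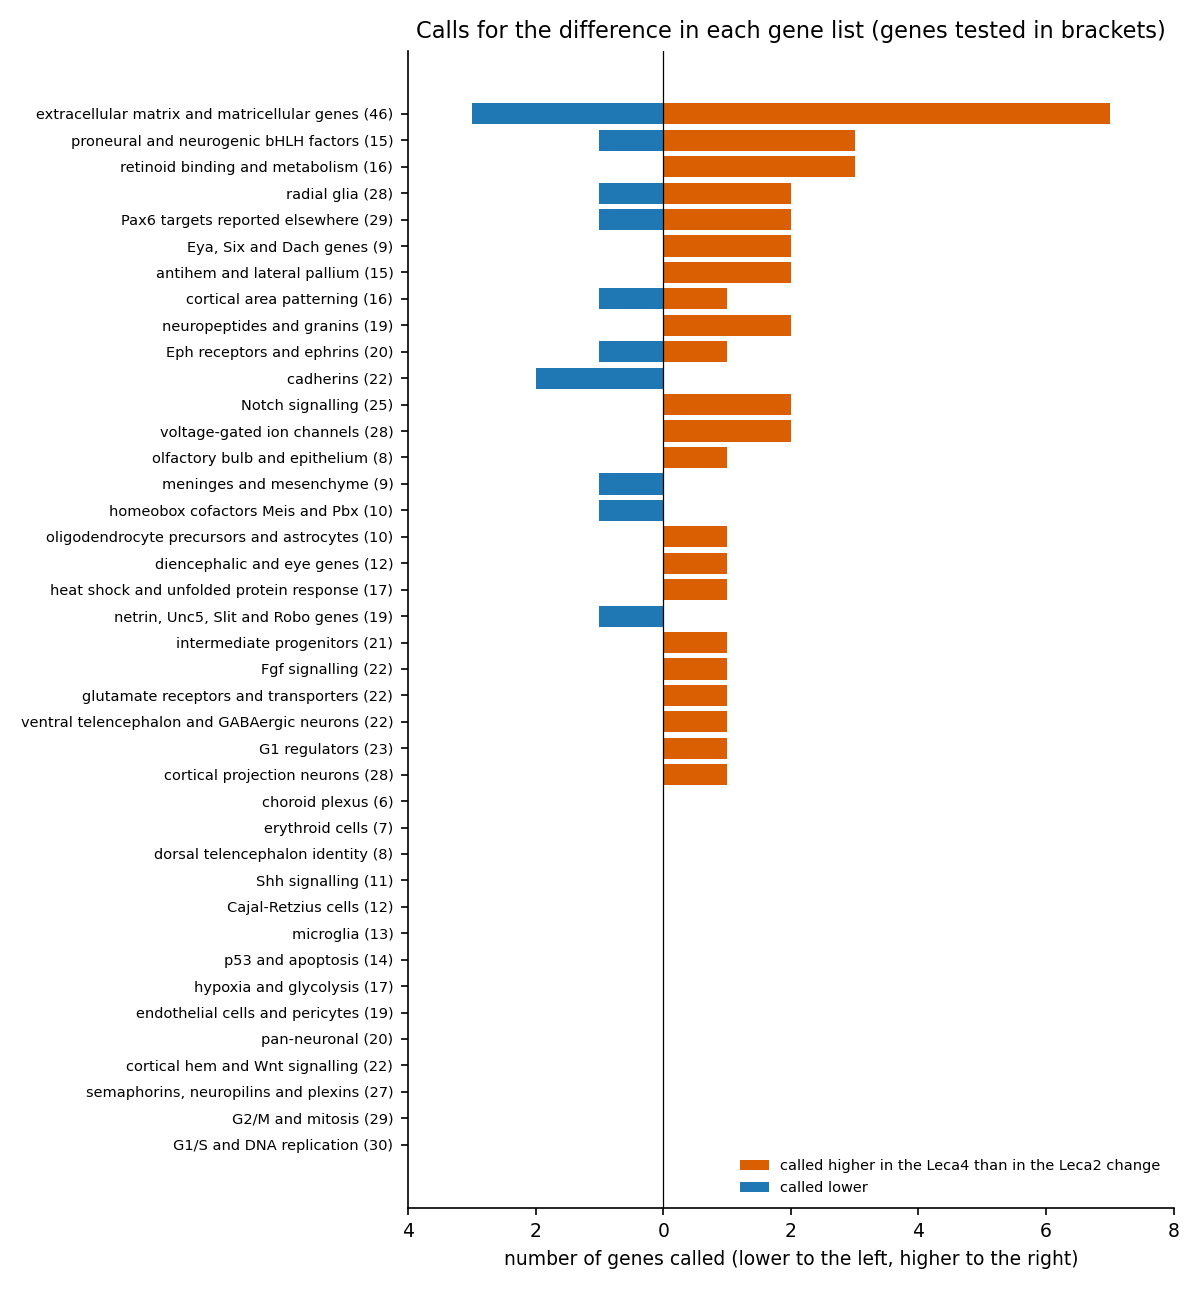
Bars count the genes of each list that were called for the difference, positive to the right in orange and negative to the left in blue, with the number of genes tested in brackets. Over all genes tested 1.42% were called positive and 0.96% negative; the extracellular matrix list, the longest, has 7 and 3 of 46, and the replication and mitosis lists have none.

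The 40 lists in that plot, of programs and of other cell types, also included groups without any call for the difference by limma. None of 11 Shh signalling genes, 22 cortical hem and Wnt genes, 17 hypoxia and glycolysis genes, 14 p53 and apoptosis genes, 7 erythroid genes and 6 choroid plexus genes was called, with medians of 0.05, 0.08, -0.03, -0.04, 0.13 and -0.07. At single genes of other tissues, Mitf, a factor of pigment cells, had a difference of 1.42 (SE 0.33, adjusted p = 0.025) from 7.24, 6.70 and 8.25 in the Leca4 mutants, a call lost without Leca2 mutant 2, Leca2 control 1 or 2, or Leca4 control 1. Aqp4, a water channel of astrocytes, had 1.20 (SE 0.26) just above the background, and lost its call without Leca2 control 1. Each was the only call of its list, and most genes of both lists had negative differences. Of 12 diencephalic and eye genes 4 were positive, with a median of -0.06. Of 10 genes of oligodendrocyte precursors and astrocytes 3 were positive, with a median of -0.20. Aldh1l1, of the same list as Aqp4, had -1.77 without a call (adjusted p = 0.0609).

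Pax6 itself was expressed at 12.02, 11.86 and 12.20 in the Leca4 mutants against 11.52, 11.68, 11.41 and 11.55. In the Leca2 mutants it had 12.20, 12.08, 12.04 and 12.26 against 11.31, 11.12 and 11.22. At this probe set the transcript rose in both lines, by 0.49 and 0.93, with no overlap between mutants and controls in either. The 3 further probe sets had Leca4 changes of 0.07, 0.17 and 0.16, none of them called. Their Leca2 changes were 0.42, 0.86 and 0.34, all called but the last. The difference of -0.44 (SE 0.13, 95% interval -0.71 to -0.17, adjusted p = 0.0823) was not called. Neither was that of the 3 further probe sets, at -0.18 to -0.69. With all its probe sets averaged, however, the difference of -0.41 was called by limma (adjusted p = 0.0372). These arrays measure transcript level and say nothing of the protein or its binding. Paupar, a long non-coding RNA next to Pax6, had 6.01, 5.64, 5.67 and 5.80 in the Leca2 mutants and lay under the background level on all other arrays, so that it was at least 1.23-fold higher in the Leca2 mutants than in their controls.

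Genes close to Pax6 on chromosome 2 were called more often than genes elsewhere. Of the 100 tested genes nearest to Pax6, as many on one side as on the other, 10 were called for the difference (10%), of the 200 nearest 15 (7.5%), and of all 1118 on the chromosome 45 (4.03%), against 2.23% on the other chromosomes. Cd44, 21 tested genes before Pax6, and Rcn1, a calcium-binding protein of the secretory pathway 3 genes before it, had positive differences. Rcn1 had 11.06, 10.73 and 11.16 in the Leca4 mutants against 9.69 to 10.12, and 10.10 to 10.43 in Leca2 mutants against 10.24 to 10.38, with a difference of 1.15 (SE 0.18, adjusted p = 0.00114).

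The neighbours with negative differences included G630016G05Rik (-2.06), Gm13889 (-1.46) and Gm13778 (-1.18). G630016G05Rik had 8.64, 7.88 and 8.70 in the Leca4 mutants against 9.26 to 9.71, and 8.65 to 9.16 in the Leca2 mutants against 7.60 to 8.63. At this gene the control groups themselves differed by 1.46, at Gm13778 by 1.21, at Ambra1 by -0.70 and at Rcn1 by -0.45. Each is opposite in sign to the difference between the changes. That difference subtracts the control difference, so opposite signs are favoured by how it is computed and say nothing of a cause. At Cd44 the control difference was 0.04, of the same sign as the difference of 2.53. Alleles carried along with the mutation, in either line, and an effect of Pax6 on a neighbour cannot be told apart with these arrays.

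**Figure D5:**
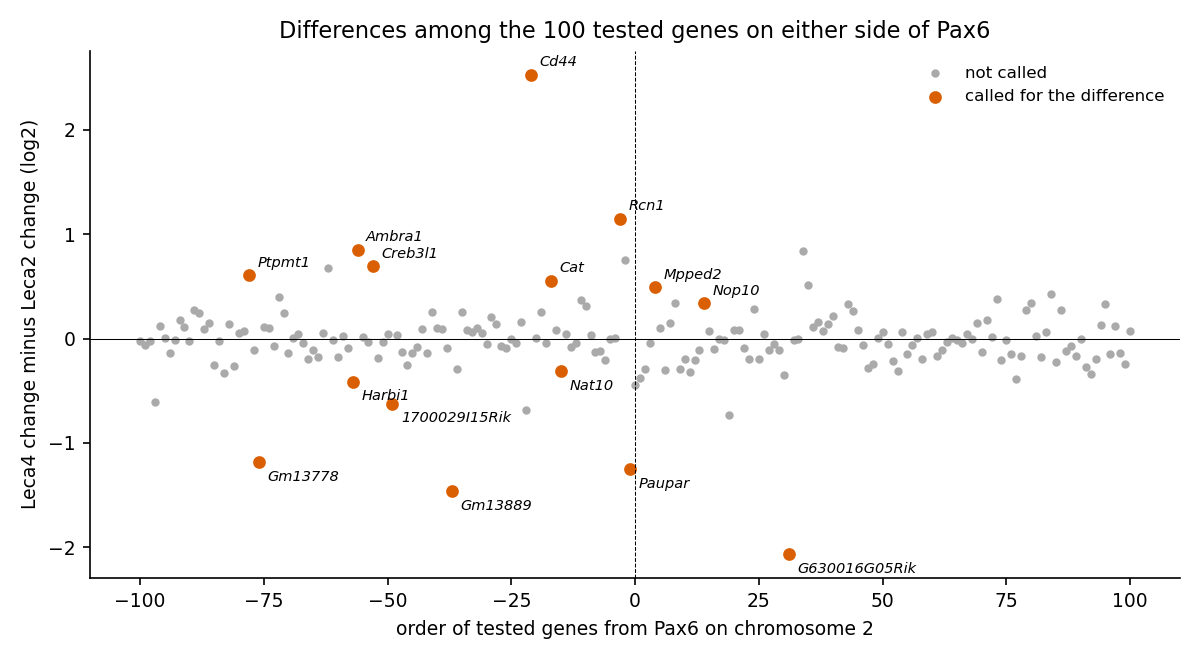
Each point is 1 of the 100 tested genes on either side of Pax6, placed by its order on chromosome 2 on the x axis, with the difference between the Leca4 and Leca2 changes in log2 units on the y axis. Orange points are the 15 genes called for the difference, from Cd44 at 2.53 to G630016G05Rik at -2.06.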

How the data were processed

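Total RNA of rostral cerebral cortex was hybridised to Affymetrix arrays, 1 array per sample. The deposited values are log2 expression values per probe set that the authors made with RMA, per the submitters' processing notes; the RMA version and a genome build: not given in the sources used here. Array medians differ by line, so arrays appear to have been normalised per line, and array batch and line cannot be told apart. Arrays have no count depth, and their number limits precision.

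Of 45101 probe sets, 34945 named 1 gene. Probe sets with at least 3 arrays above the 40th percentile of their array were kept, and for each of 13850 genes the kept probe set of highest mean level was taken. Of these symbols 13825 were in the RefSeq gene table of GRCm38.p6, used for gene order. The 21 arrays entered 1 limma 3.58.1 model in R 4.3.3 with 6 groups, checked on simulated data, with Benjamini-Hochberg adjustment over all genes per contrast.

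Where no array of a group exceeded the percentile used by the filter, a fold is the other group's mean over the mean of those percentiles, as "at least". The 41 lists, 1 of them sex-linked transcripts, held 742 symbols, 641 of which were tested. The members, lists and rules were chosen with earlier results of these data known. Genes were named by rule: Pax6, the 15 largest differences each way, list members with the smallest p, genes called in both lines, and index genes of cortical development. Not all of them are printed. Of the 15 largest each way, Sh2d1a (2.03), Veph1 (-1.62), Zfhx2os (-1.39), Adarb2 (-1.34) and Gcg (-1.27) were left out above. Cxcl12, Npnt, Lgals1, Tnfaip6, Vcam1, Emid1, Napepld, Igsf11, Ddit4l, Onecut2, Pou3f4, Cdo1, Scd1, Rcn1, Ambra1 and Gm13778 were added after their values were seen. Deviations of mutants and controls with the same replicate number correlated at -0.44 to 0.34, so numbers were not taken to pair samples.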

Additional observations from a re-analysis of the deposited data

Results flagged for a closer look

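The Leca4 and Leca2 changes differed at 329 genes by the test of the difference itself. Opposite called changes gave a difference of 2.77 at Neurog1, 1.61 at Pde1c, 1.25 at Dnajc1, 1.04 at Ak3, 1.02 at Myo6, -0.74 at Mfge8 and -1.43 at Tmem163. Qrfpr had a fitted difference of 2.53, but all its Leca2 arrays lay under the background level, so that its Leca2 change has no level behind it.

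Single arrays stood apart from the 3 others of their group in 6 of 270 gene and group combinations of the 135 genes listed (2.22%), fewer than the 1 in 20 that chance gives. In the Leca4 controls, replicate 1 was low at Cd44 (5.17 against 5.36 to 5.39) and Npnt (6.03 against 6.45), and replicate 4 was high at Kcnq5 (7.51 against 7.19 to 7.24). In the Leca2 mutants, replicate 1 was low at G630016G05Rik (8.65 against 9.11 to 9.16) and high at Tmem163 (9.065 against 8.89), and replicate 2 was low at Jag1 (7.87 against 8.06 to 8.09). The calls at these 6 genes were kept without each of those arrays.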

How the results depend on the processing

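The main counts were 329 genes called (196 positive, 133 negative), 779 in Leca4, 66 in Leca2 and 6561 between controls. With the replicate block, pairing mutants and controls of a line by number, 148 were called (95 positive, 53 negative), 450 in Leca4 and 28 in Leca2, and 128 of the 148 were among the 329. Array weights gave 499 (220 negative) and 121 in Leca2, an adjusted p under 0.10 gave 611 (326 and 285), the 14 Leca arrays alone gave 83 negative calls, a minimum of 1.4-fold gave 330 in Leca4 and 1194 between controls, and median centring gave 4211 between controls. Comparing mutants with pooled controls after quantile normalisation, which sets the mutant groups against each other directly, gave 3420 (2308 and 1112) and 230 in Leca2, and turned the sign of Ccnd2 (-0.23), Nxph4 (-0.32), Fbln1 (-0.27), Harbi1 (0.086), Zfp661 (0.11) and Slc14a1 (0.11). A term for sex gave 274, of which 247 were among the 329.

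Leaving out each array in turn gave 201 to 398 genes called, 141 to 232 positive, 60 to 206 negative, 512 to 793 in Leca4 and 40 to 82 in Leca2. The lowest counts came without Leca2 control 1 (201, with 60 negative), Leca4 mutant 1 (512 in Leca4) and Leca2 mutant 2 (40 in Leca2). Negative calls were 75 without Leca2 mutant 2, 72 without Leca2 control 2, 206 without Leca2 control 3 and 82 without Leca4 control 4. The difference was called in every alternative at Neurog1, Rlbp1, Tmem163, Cd44, Ccn2, Crabp1, Eya4, Hopx, Adcyap1, Meis1 and Dmrta1. Averaging probe sets per gene ended the calls at Fn1 (0.31), Ambra1 (0.41), Ddit4l, Efna3, Epha3 and Fbln1, and moved Npnt to 0.93, Vcam1 to 0.82, Pde1c to 1.03, Myo6 to 0.64, Ptx3 to -1.06, Scd1 to -0.57 and Col9a1 to -0.57. The same averaging brought a call at Pax6 (-0.41). With values raised to the filter level, Uncx gave 1.18, Aqp4 0.65, Eya2 0.64, Gm13778 -0.47 and Paupar -0.30, the last 3 without a call. The replicate block also ended the calls at Fbln7, Uncx, Pou3f4, Zfpm2, Cacna2d1, Col1a2, Gna14, Cdkn1c, Mitf and Aqp4. With 3 or 4 arrays a group, smaller differences could not be called, and values near the background understate changes.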
